A study of Homo sapiens with 204 samples.

Results

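The genes described here are 10 immediate early and MAP kinase phosphatase genes, FOS, FOSL1, JUN, JUNB, JUND, EGR1, IER2, IER3, DUSP1 and DUSP5. They were taken by symbol from a given list, and all 10 have a row in both count tables, among 41379 genes in RNA-seq and 19217 in Ribo-seq. A549 cells, a human lung adenocarcinoma line, received small interfering RNA (siRNA) against 1 of 75 ribosomal proteins (44 of the large and 31 of the small subunit) or non-targeting siRNA as control. All cells, controls included, were transfected with Lipofectamine RNAiMAX at 40 nM siRNA for 24 h, and all were given cycloheximide, which holds ribosomes on mRNA, shortly before harvest. Each lysate was divided between RNA-seq (mRNA amount) and Ribo-seq (the mRNA fragments that ribosomes cover, called footprints), which gave 91 knockdown and 11 control libraries per assay. The study used 1 cell line, and the controls are shared by all targets, so the comparisons with control below are not independent of each other.

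RNA-seq libraries held between 18.8 and 63.6 M counts (mega counts), with a median of 27.8, and Ribo-seq libraries between 7.77 and 57.2 M, with a median of 23.8. Library titles form 2 sets. The numbered set has 32 knockdown libraries of 16 targets, each with 2 libraries, and 6 controls. The unnumbered set has 59 targets with 1 library each and 5 controls. The count tables list the libraries in 3 runs of columns, and levels of several genes differed between runs, so control values are given by set or run where it matters. Fits were also made without control 20_2, since an earlier analysis of these data set it apart in RNA-seq; by Dixon's criterion it did not stand out for any of the 10 genes. The epithelial and A549 marker genes summed to 6996 to 14840 CPM (counts relative to a library's total; median 9503) in knockdown and 7201 to 11382 CPM (median 8093) in control RNA-seq libraries. The fibroblast marker genes summed to 6.83 to 55.2 CPM (median 23.5) in knockdowns and 13.9 to 32 CPM (median 27.5) in controls, with 3 of 8 genes under 0.1 CPM. The blood cell marker genes summed to 17.6 to 56.3 CPM (median 32.1) in knockdowns and 22.6 to 33.5 CPM (median 26.8) in controls, with 5 of 7 under 0.1 CPM.

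Immediate early genes are transcribed within minutes of a growth factor or stress signal, without new protein synthesis, and their mRNAs and proteins are short-lived. Growth factor signals run through RAS, RAF, MEK and the MAP kinase ERK to factors bound at these promoters, such as serum response factor at CArG boxes and CREB or ATF proteins at cAMP response elements. FOS and FOSL1 pair with JUN, JUNB or JUND to form the transcription factor AP-1, in which JUND is often described as the more constantly expressed JUN protein. EGR1 is a zinc finger transcription factor, IER2 and IER3 are short immediate early proteins (IER3 is linked to cell survival), and DUSP1 and DUSP5 are nuclear phosphatases that switch MAP kinases off again, DUSP5 acting on ERK.

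Promoter sequences in the RefSeq table (GRCh38.p14) were matched for 7 of the 10 genes; FOSL1, IER3 and DUSP5 were not matched. Those of 5 members are shown so that the letters of the elements named above can be seen where a window holds them. Each line gives the 250 bases before the annotated start, 5′ to 3′ on the gene's strand. Capitals mark the CArG box (CC, 6 bases A or T, GG), the GCGNGGGCG site of EGR proteins, TGACGTCA, TGACATCA and TATAAA, searched on both strands with no overlap between the marked matches.
EGR1: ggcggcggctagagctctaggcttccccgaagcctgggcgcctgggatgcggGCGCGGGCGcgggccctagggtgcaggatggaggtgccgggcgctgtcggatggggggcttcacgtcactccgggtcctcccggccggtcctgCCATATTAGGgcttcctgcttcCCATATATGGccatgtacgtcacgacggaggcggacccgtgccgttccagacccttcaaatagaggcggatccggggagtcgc
JUN: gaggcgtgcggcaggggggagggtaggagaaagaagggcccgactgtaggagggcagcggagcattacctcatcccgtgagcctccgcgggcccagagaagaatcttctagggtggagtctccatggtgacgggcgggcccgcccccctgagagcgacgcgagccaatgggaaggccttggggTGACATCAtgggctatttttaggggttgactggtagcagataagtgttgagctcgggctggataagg
JUND: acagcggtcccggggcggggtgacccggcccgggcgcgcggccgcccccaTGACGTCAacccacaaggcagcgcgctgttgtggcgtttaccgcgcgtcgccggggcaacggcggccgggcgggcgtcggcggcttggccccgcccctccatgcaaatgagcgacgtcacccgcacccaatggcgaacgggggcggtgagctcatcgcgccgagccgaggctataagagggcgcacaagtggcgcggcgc
IER2: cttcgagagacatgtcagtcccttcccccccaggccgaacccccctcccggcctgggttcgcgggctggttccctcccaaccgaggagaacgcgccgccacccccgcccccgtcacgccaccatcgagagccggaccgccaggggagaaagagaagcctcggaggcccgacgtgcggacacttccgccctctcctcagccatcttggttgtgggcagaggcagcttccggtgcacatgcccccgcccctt
DUSP1: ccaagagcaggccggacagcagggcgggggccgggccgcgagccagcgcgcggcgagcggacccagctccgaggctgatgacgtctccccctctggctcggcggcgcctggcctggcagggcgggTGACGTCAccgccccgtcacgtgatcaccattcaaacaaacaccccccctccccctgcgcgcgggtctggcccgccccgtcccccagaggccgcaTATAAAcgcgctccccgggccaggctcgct
The windows are chr5:138465229-138465478 (plus strand) for EGR1, chr1:58784048-58784297 (minus strand) for JUN, chr19:18281623-18281872 (minus strand) for JUND, chr19:13150161-13150410 (plus strand) for IER2 and chr5:172771196-172771445 (minus strand) for DUSP1. EGR1 has 2 CArG boxes, 105 to 96 and 83 to 74 bases before its start, a motif found in 1.16% of the 35116 RefSeq promoter windows of the same length, and a GCGNGGGCG match (8.41% of windows). JUND and DUSP1 share the full cAMP response element TGACGTCA (1.65% of windows), 200 to 193 and 125 to 118 bases before their starts. JUN has the variant TGACATCA (2.37%) at 67 to 60 bases, and DUSP1, like FOS and JUNB, has TATAAA (10.7%). The AP-1 site TGANTCA (6.57%) was in none of the 7 windows, and IER2 held none of the marked motifs. GGGCGG, left unmarked, was in the windows of FOS, JUN, JUND, IER2 and DUSP1 and in 42.6% of all windows. A match is a description of these letters only.

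Over all knockdowns, IER2 was the member whose footprints rose most, IER3 footprints rose while its mRNA did not, and the other 8 members were not called in either assay. Counts were tested across all genes with edgeR's quasi-likelihood test with Benjamini-Hochberg adjustment, the title set as a term, and adjusted p under 0.05 as the call. The sources call repeat libraries biological without naming separate cultures, so each p-value reflects the spread among these libraries, which may be partly technical. Libraries of the same target were counted separately in the fits over all knockdowns. In bulk samples fewer cells that express a gene and less RNA per cell cannot be told apart. CPM here are not divided by gene length and are compared only within a gene. In mRNA 1 of 10 members was called, IER2, against 30.6% of all 15526 genes tested (13.4% higher), and the members' median log2 fold change was -0.15, against -0.03 over all genes. In footprints 2 of 10 were called, IER2 and IER3, against 26.7% of 12793 genes (13.2% higher), and the medians were 0.08 and -0.00. A share of 10 genes this close to or under the background says nothing particular about the members as a set.

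Among the AP-1 genes, FOS (chr14:75278828-75282230) was scarce, with 1.30 to 5.08 CPM (median 2.85) of mRNA in knockdown libraries and 1.92 to 4.92 CPM (median 3.23) in controls. Its footprints were at 0.453 to 6.23 CPM (median 2.16) in knockdowns and 0.963 to 2.42 CPM (median 2.01) in controls. The ranges overlap, and the log2 fold changes of FOS were -0.08 ± 0.13 (SE) in mRNA and 0.23 in footprints, neither called. FOSL1 (chr11:65892049-65900545) had 15.1 to 221 CPM (median 72.3) of mRNA in knockdowns and 65.9 to 194 CPM (median 95.3) in controls. Of the 91 knockdown libraries, 40 lay below all controls of their title set and 5 above. The average change of FOSL1 mRNA, -0.31 ± 0.20, was not called, since both arms spread widely. Controls 11_1 and 11_2 had 194 and 187 CPM of FOSL1 mRNA where controls 20_1 and 20_2 of the same run had 82.2 and 95.3 CPM.

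JUN (chr1:58780791-58784047) had 13.8 to 118 CPM (median 53.6) of mRNA in knockdowns and 28.9 to 74.6 CPM (median 50.9) in controls. Its footprints were at 16.3 to 145 CPM (median 52.1) in knockdowns and 21.2 to 67.6 CPM (median 39.7) in controls, a log2 fold change of 0.46 ± 0.18 that missed the threshold (adjusted p = 0.0520). The call was made in 3 of 11 fits that each left out 1 control (without 11_2, 1 or 7), and with DESeq2. JUNB (chr19:12791486-12793315) had a median of 47.6 CPM of mRNA in knockdowns and 60.2 CPM in controls, with 27 libraries below and 14 above all controls of their set. JUNB footprints had medians of 82.3 CPM in knockdowns and 85.6 CPM in controls. Neither JUNB difference was called (-0.15 ± 0.14 in mRNA, 0.08 in footprints). JUND (chr19:18279694-18281622) had 24.8 to 94.8 CPM (median 55.6) of mRNA in knockdowns and 37 to 82.4 CPM (median 52.3) in controls. JUND footprints were at 10.3 to 80.3 CPM (median 30.4) in knockdowns and 16.8 to 63.9 CPM (median 24.9) in controls. The average change of JUND was near 0 in both assays (0.02 ± 0.13 and 0.06), and single libraries went both ways, 31 above and 22 below all controls in mRNA.

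EGR1 (chr5:138465479-138469303) had a median of 3.73 CPM of mRNA in knockdowns (0.771 to 11.5) and 4.53 CPM in controls (1.55 to 8.90). EGR1 footprints were few, with 0 counts in 4 of 91 knockdown libraries and 1 of 11 controls. A count of 0 allows at most 0.386 CPM in the shallowest Ribo-seq library (3 counts; counting error only). The counts also varied between libraries of similar depth, with 0 in control 3 (30.9 M in total) and 52 in control 1 (31.8 M). What sets these libraries apart was not tested. The footprint change of EGR1 was -0.08 ± 0.36, so a moderate change in either direction was not detectable with this spread between libraries.

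IER2 (chr19:13150411-13154911) mRNA was at 25.3 to 86.8 CPM (median 45.9) in knockdowns and 28.2 to 54.1 CPM (median 38.2) in controls. IER2 footprints were at 24.1 to 119 CPM (median 45.5) in knockdowns and 18.8 to 40.7 CPM (median 27.9) in controls. Of the 91 knockdown libraries, 75 had more IER2 footprints than any control of their set and 0 had fewer. The log2 fold change in footprints was 0.81 ± 0.16 (adjusted p = 2.6e-05), and it stayed called when each control was left out in turn (0.76 to 0.86). It was called in runs 1 and 2 taken alone, and not in run 3 alone (0.55), where only 2 controls stand. In runs 1, 2 and 3 the medians were 65.1, 40.9 and 35.8 CPM in knockdowns, against 38.3, 27.7 and 24.7 CPM in controls. The mRNA change of IER2, 0.27 ± 0.11, was called by a small margin (adjusted p = 0.0443, edgeR). It was lost in 7 of 11 fits that left out 1 control (without 11_1, 11_2, 1, 5, 9, 21_1 or 21_2; 0.24 to 0.35, adjusted p = 0.0108 to 0.0950), with a term for the run (0.23) and in the numbered titles alone (0.18).

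IER3 (chr6:30743199-30744547) mRNA was at 82.0 to 283 CPM (median 171) in knockdowns and 144 to 266 CPM (median 199) in controls. IER3 footprints were at 54.5 to 324 CPM (median 106) in knockdowns and 56.2 to 129 CPM (median 77.5) in controls. The mRNA lay below all controls of its set in 29 libraries and above in 6, while the footprints lay above in 43 and below in 5. The footprint change was 0.47 ± 0.17 (adjusted p = 0.0337, edgeR) and the mRNA change -0.21 ± 0.10 (adjusted p = 0.106), which was called lower with a term for the run (-0.24). The footprint call of IER3 was lost in 7 of 11 fits that left out 1 control (without 20_1, 20_2, 1, 3, 9, 21_1 or 21_2; 0.43 to 0.54, adjusted p = 0.0209 to 0.0756) and within either title set (0.46 numbered, 0.48 unnumbered).

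The phosphatases had similar medians in knockdowns and controls, while single libraries went both ways. Of the 91 knockdown libraries, DUSP1 footprints lay above all controls of their set in 29 and below in 16. For DUSP5 footprints these counts were 31 and 25. In mRNA they were 12 above and 27 below for DUSP1, and 10 and 26 for DUSP5. DUSP1 (chr5:172768096-172771195) had medians of 282 CPM of mRNA in knockdowns and 303 CPM in controls, and of 305 CPM of footprints in knockdowns and 272 CPM in controls. DUSP5 (chr10:110497907-110511533) had medians of 165 CPM of mRNA in knockdowns and 161 CPM in controls, and of 77.5 CPM of footprints in knockdowns and 75.0 CPM in controls. None of these 4 differences was called (DUSP1 -0.16 ± 0.09 in mRNA, adjusted p = 0.185; DUSP5 -0.20 ± 0.13).

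**Figure D1:**
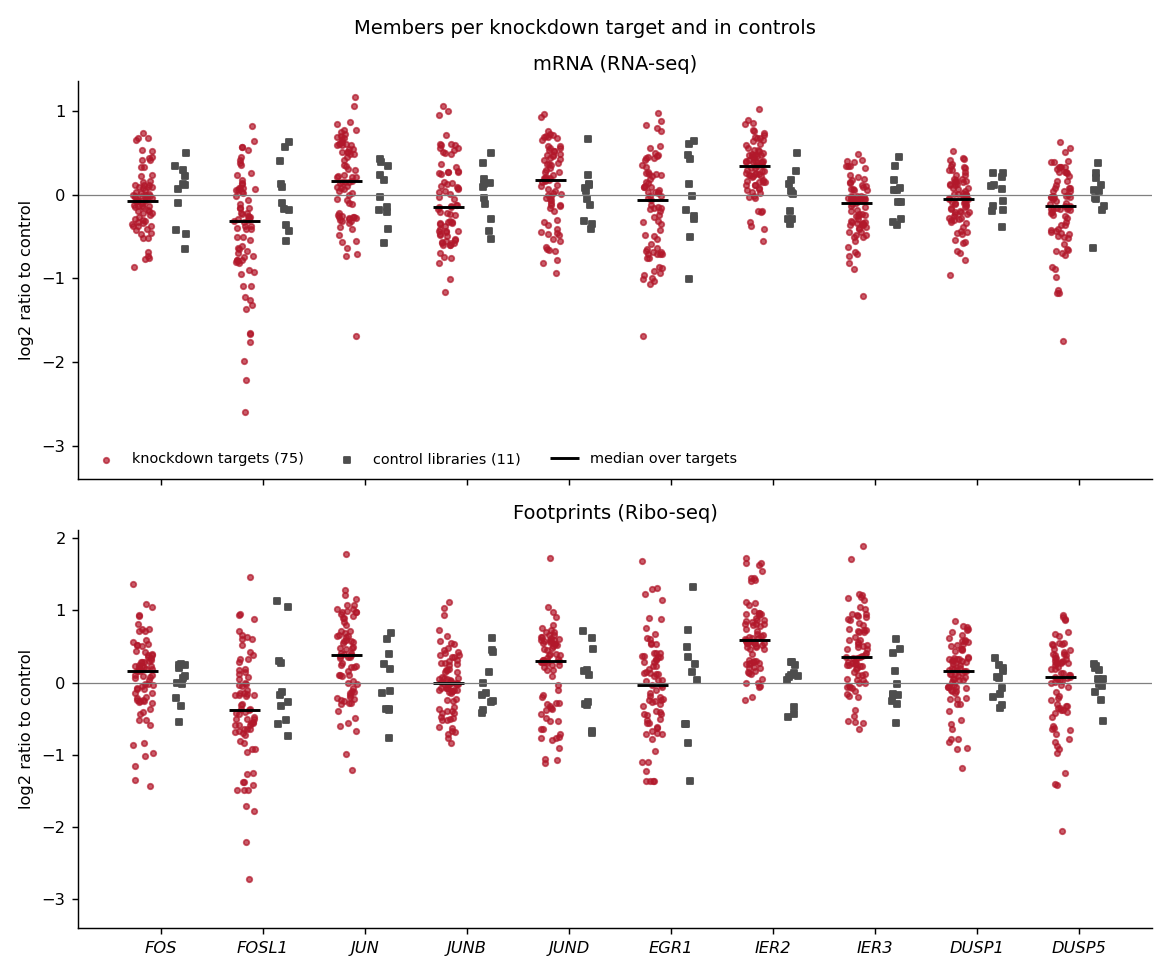
Log2 ratio to the mean control of the same title set (y axis) for each gene (x axis), in mRNA (top) and footprints (bottom); red points are the 75 knockdown targets, grey squares the 11 control libraries and bars the median over targets. IER2 footprints sit above 0 for 69 of 75 targets, and FOSL1 has the longest lower tail, reaching -2.59 in mRNA.

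Footprints per mRNA, the measure of how densely ribosomes cover each message, were higher for IER3 and IER2. In the edgeR model over both assays (12480 genes) 0 of 10 members were called, with 0.353% of genes called, and 2 had an unadjusted p under 0.05, IER3 (0.66 ± 0.20, p = 0.00126, adjusted p = 0.201) and IER2 (0.51 ± 0.18, p = 0.00505, adjusted p = 0.444). That model does not use the pairing of the assays by lysate. With the lysate as a block (limma on the log2 ratio within each lysate, 3.93% of genes called, 1.55% higher) 2 of 10 were called, IER3 at 0.60 ± 0.12 (adjusted p = 0.000550) and IER2 at 0.48 ± 0.12 (adjusted p = 0.00770). Both calls stood in 11 of 11 fits that left out 1 control, at 0.53 to 0.65 for IER3 and 0.42 to 0.54 for IER2. The median over the members in the blocked fit was 0.19, against -0.04 over all genes.

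**Figure D2:**
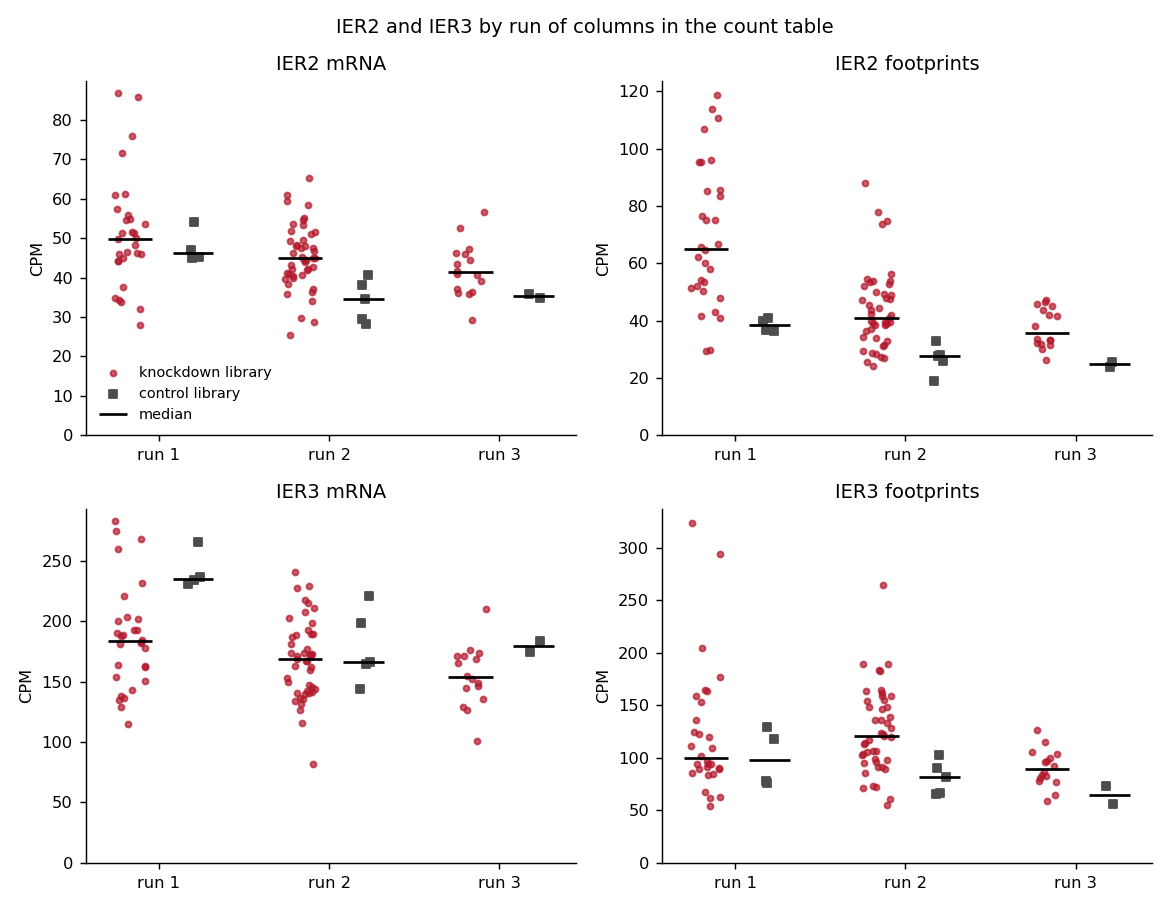
IER2 (top) and IER3 (bottom) levels in CPM (y axis) of mRNA (left) and footprints (right), by run of columns in the count table (x axis); red points are knockdown libraries, grey squares controls, bars medians. IER2 footprint medians are 65.1 CPM in knockdowns against 38.3 CPM in controls in run 1, 40.9 against 27.7 CPM in run 2 and 35.8 against 24.7 CPM in run 3.

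The response differed from target to target. For each of the 75 targets a log2 ratio to the mean of the controls of its title set was taken (CPM after scaling by edgeR's TMM, pseudocount 0.5). These ratios carry no test, since 59 targets have 1 library.

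FOSL1 mRNA had the widest range of the 10 members, -2.59 to 0.81 (median -0.32), and was below 0 for 53 targets. It was lowest with knockdown of RPS27L (-2.59), stood at -1.98 with RPS18, and was highest with RPL24 (0.81), RPS12 (0.64) and RPL11 (0.57). The footprints of FOSL1 had RPS27L (-2.72) at the low end and RPL24 (1.47) at the high end. FOS mRNA ran from -0.86 (RPL8), -0.76 (RPS27L) and -0.75 (RPS18) up to 0.67 (RPL23), 0.68 (RPL22) and 0.73 (RPL37A).

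JUN mRNA was above 0 for 48 targets (median 0.16), highest with RPS3A (1.17), RPL24 (1.06) and RPS12 (0.86). It was lowest with RPS27L (-1.69), RPL13A (-0.73) and RPL23 (-0.71). JUNB mRNA was highest with RPS2 (1.06) and RPL11 (0.99) and lowest with RPL23 (-1.17), RPS9 (-1.01) and RPL13A (-0.82). JUND mRNA was above 0 for 47 targets (median 0.18), highest with RPS4X (0.96), RPL23A (0.92) and RPS29 (0.76), and lowest with RPL13A (-0.94), RPL39 (-0.82) and RPL29 (-0.78). EGR1 mRNA was highest with RPL32 (0.97), RPS3 (0.87) and RPL37 (0.83) and lowest with RPS18 (-1.69), RPL38 (-1.07) and RPL35A (-1.03). RPL13A knockdown thus stood among the 3 lowest for JUN, JUNB and JUND alike, a single library.

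IER2 mRNA was above 0 for 65 targets (median 0.34), highest with RPL24 (1.02), RPLP1 (0.89) and RPL11 (0.86), and was among its lowest with RPL29 (-0.41) and RPL23 (-0.38). IER2 footprints were above 0 for 69 targets (median 0.59) and above every control's own ratio for 56. Their highest ratios were with RPL24 (1.73), RPS3 (1.66) and RPS27 (1.65). IER3 mRNA was below 0 for 54 targets (median -0.10), lowest with RPS27L (-1.21), at -0.81 with RPS6, and highest with RPL22 (0.48), RPL31 (0.41) and RPL23A (0.40). IER3 footprints per mRNA were above 0 for 71 of 75 targets (median 0.56), the most of any member, and IER2 followed with 60 (median 0.26). Single controls ran from -0.63 to 0.54 in this ratio for IER3 and from -0.36 to 0.28 for IER2. Above every control's own ratio were 39 targets for IER3 and 37 for IER2.

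DUSP1 mRNA was highest with RPL11 (0.52), RPL6 (0.44) and RPL7 (0.43), all of the large subunit, and lowest with RPS18 (-0.96) and RPS10 (-0.79), both of the small subunit. DUSP5 mRNA had the same split of subunits at its ends, highest with RPL36 (0.63), RPL7A (0.56) and RPLP2 (0.51) and lowest with RPS14 (-1.75), RPS10 (-1.18) and RPS27L (-1.17). DUSP5 footprints were lowest with RPS14 (-2.05).

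The 16 targets with 2 libraries each allow a test per target against the 6 controls of the numbered set. RPS16 has its libraries in runs 2 and 3 of the columns, and none of these 6 controls is in run 2. The other targets have both libraries in run 1, while controls 21_1 and 21_2 are in run 3. IER2 footprints were at 23.8 and 25.7 CPM in these 2 controls and 36.3 to 40.7 CPM in run 1 controls. DUSP5 footprints were at 79.1 and 77.4 CPM against 59.5 to 74.0 CPM. The calls may thus hold a difference between runs. Within run 1 alone, without RPS16, 79 of 150 mRNA and 84 of 150 footprint pairs were called (share over all genes not given). Among mRNAs, 70 of 160 pairs of member and target were called, 14 higher and 56 lower (43.8%, against 23.3% of pairs over all genes, 10.8% higher and 12.5% lower). Among footprints 75 were called, 43 higher and 32 lower (46.9%, against 29.3%, 13.9% higher and 15.4% lower). In footprints per mRNA (limma, lysate as block) 29 were called, 28 higher and 1 lower (18.1%, against 3.70%, 1.84% higher and 1.87% lower), and without control 20_2 the count was 36, 30 higher and 6 lower (22.5%, against 9.92%), with 4 of the 6 lower calls in DUSP1, which had 0 lower calls with all controls. Leaving 1 of the 2 libraries of each target out ended the mRNA calls (0 called by edgeR in both fits, with 16 and 20 pairs at an unadjusted p under 0.05) and left 7 and 9 footprint calls, with the spread then taken from the controls alone. The targets also differed among themselves (edgeR F test over the 16 target means) for 10 of 10 members in mRNA, where 73.6% of all genes did, and for 9 of 10 in footprints (78.8%). The exception was FOS, with adjusted p = 0.134 in footprints and 0.0424 in mRNA.

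FOSL1 mRNA fell with 8 of the 16 targets and rose with 2. In RPS15 knockdown it was at 38.6 and 37.3 CPM, under every control (82.2 to 194 CPM). The fitted change was -1.71 ± 0.23 (adjusted p = 3.9e-06; edgeR quasi-likelihood test). In RPL24 knockdown FOSL1 mRNA was at 221 and 197 CPM, above every control, and its footprints at 371 and 385 CPM, against 81.3 to 307 CPM in the controls. These changes were 0.75 ± 0.19 and 1.25 ± 0.31 (adjusted p = 0.00498 and 0.00238, edgeR). FOS had 0 mRNA calls by edgeR (3 targets at an unadjusted p under 0.05) and 2 footprint calls, 1 of them with RPL24 (1.06 ± 0.39).

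JUN mRNA rose with 5 targets and fell with 3, and its footprints rose with 8 and fell with 1. In RPS12 knockdown JUN mRNA was at 107 and 99.7 CPM, against 45.2 to 74.6 CPM in the controls of the set. JUN footprints there were at 145 and 145 CPM, against 34.1 to 67.6 CPM, and the groups did not overlap in either assay. The changes with RPS12 were 0.83 ± 0.11 in mRNA, 1.75 ± 0.17 in footprints and 0.97 ± 0.15 in footprints per mRNA (adjusted p = 4.95e-06 and 1.08e-08 by edgeR and 0.000196 by limma). JUNB mRNA fell with 8 targets, most with RPS9 (-1.03 ± 0.15), and rose with RPL15 (0.53 ± 0.14), which had 91.7 and 91.8 CPM, against 53.4 to 76.4 CPM in controls. JUNB was called in both directions with RPS12 knockdown, -0.53 in mRNA and 0.46 in footprints, and 1.03 ± 0.24 in footprints per mRNA.

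JUND mRNA fell with 5 targets (RPL15, RPL29, RPS3, RPS16 and RPS26) and rose with 1, RPS15. In RPS15 knockdown it was at 84.8 and 86.6 CPM and in RPS26 knockdown at 37.9 and 38.7 CPM, against 45.5 to 82.4 CPM in controls. Both targets lie outside the control range, on opposite sides, with changes of 0.54 ± 0.19 and -0.75 ± 0.20 (adjusted p = 0.0314 and 0.0121, edgeR). JUND footprints were at 78.4 and 80.3 CPM with RPS15 and 18.6 and 19.6 CPM with RPS26, against 24.1 to 63.9 CPM in controls (0.82 ± 0.23 and -1.17 ± 0.26, adjusted p = 0.00805 and 0.00137, edgeR). With RPS15, where JUND rose, FOSL1 fell by 1.71 and DUSP5 fell by 0.88 in mRNA. EGR1 rose most with RPS3, at 10.8 and 11.5 CPM of mRNA, against 3.31 to 8.90 CPM in controls (0.87 ± 0.22), and at 7.43 and 6.45 CPM of footprints, against 1.02 to 2.74 CPM (1.88 ± 0.32, adjusted p = 2.58e-05, edgeR). EGR1 mRNA fell with 6 targets.

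IER2 footprints rose with 14 of the 16 targets, where 13.9% of pairs over all genes were called higher, and were not called with RPS7 (0.24 ± 0.16). With RPL24 they were at 111 and 107 CPM, with RPS3 at 119 and 95.4 CPM and with RPS12 at 114 and 85.7 CPM, against 23.8 to 40.7 CPM in the 6 controls. The groups did not overlap, and the changes were 1.72, 1.66 and 1.64 (± 0.15 each). IER2 mRNA rose with only 2 targets, RPL24 (1.00 ± 0.16) and RPL21 (0.78 ± 0.16), and fell with 1; without control 20_2 it was called with 6. With RPS3, IER2 mRNA was at 51.2 and 54.7 CPM, inside the control range of 34.8 to 54.1 CPM or just above it, while its footprints were far above theirs. IER2 footprints per mRNA were above 0 for 16 of 16 targets and called for 9, including RPS3 (1.47 ± 0.19) and RPS12 (1.43 ± 0.19).

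IER3 mRNA fell with 7 targets and was not called with the other 9, while its footprints rose with 5 and fell with 2. In RPS16 knockdown IER3 mRNA was at 141 and 145 CPM, below the numbered control range of 175 to 266 CPM (-0.75 ± 0.16, adjusted p = 0.00113, edgeR). Those controls are in runs 1 and 3 and the RPS16 libraries in runs 2 and 3. The unnumbered controls of run 2 had 144 to 221 CPM, so this call may hold a difference between runs. In RPL24 knockdown IER3 mRNA was at 260 and 283 CPM, within the numbered control range or above it. IER3 footprints there were at 294 and 324 CPM, against 56.2 to 129 CPM in controls (1.84 ± 0.19, adjusted p = 1.14e-08, edgeR). IER3 footprints per mRNA were called higher for 7 targets by limma and not called for the other 9.

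DUSP1 mRNA fell with 10 targets and rose with RPL24 (0.28 ± 0.10). DUSP5 mRNA fell with 8 targets and its footprints with 9, and the others were not called. In RPS10 knockdown DUSP5 mRNA was at 75.8 and 68.0 CPM, against 138 to 161 CPM in controls, and its footprints at 29 and 26.9 CPM, against 59.5 to 79.1 CPM. No library overlaps the controls, and the changes were -1.18 ± 0.11 and -1.44 ± 0.13 (adjusted p = 2.76e-08 and 3.03e-09, edgeR). With RPS3, DUSP1 mRNA fell (215 and 225 CPM, against 259 to 314 CPM in controls; -0.48 ± 0.10) while DUSP1 footprints rose (435 and 368 CPM, against 218 to 301 CPM; 0.57 ± 0.12), and DUSP1 footprints per mRNA rose by 1.06 ± 0.17. With RPS3, DUSP5 fell in mRNA (-0.999 ± 0.11) and in footprints (-0.94 ± 0.13), and its footprints per mRNA were not called (0.06 ± 0.15); the difference between the phosphatases was not tested. Among single targets, RPL24 knockdown raised the footprints of 7 of 10 members, where 15.7% of genes were called higher.

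**Figure D3:**
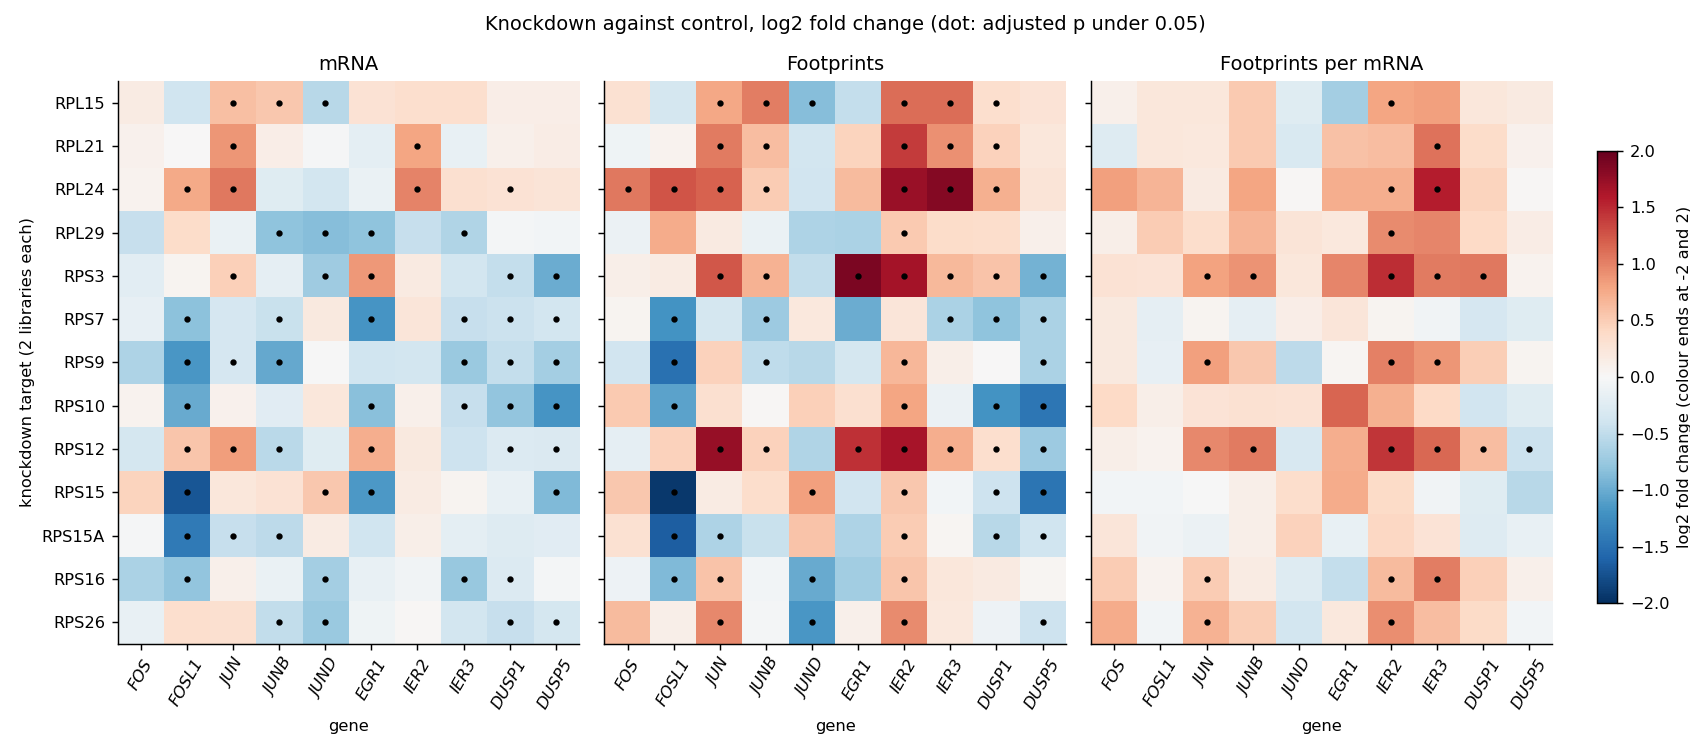
Log2 fold change against control for 13 of the targets with 2 libraries (rows) and the 10 genes (columns), in mRNA, footprints and footprints per mRNA (left to right); red is higher and blue lower in the knockdown, colours end at -2 and 2, and a dot marks an adjusted p under 0.05. The IER2 column has 12 dots in footprints, all higher, and the DUSP5 column has 7 in mRNA and 8 in footprints, all lower.

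Large- and small-subunit knockdowns were set against each other, with the title set as a term and the controls in the fit for the spread. Each library was a unit, with no term for the target. The 2 libraries of a target thus counted separately, which can make these p-values too small, most of all within the numbered titles. FOSL1, DUSP1, DUSP5, IER3 and IER2 mRNA were higher in large- than in small-subunit knockdowns, and JUND alone was called lower. That is 6 of 10 members, where 31.6% of genes were called (15.2% higher and 16.4% lower). Over the targets, DUSP1 mRNA averaged 0.09 ± 0.22 (log2 ratio to control, SD) in 44 large- and -0.31 ± 0.26 in 31 small-subunit knockdowns. DUSP5 averaged 0.03 ± 0.33 in large- and -0.48 ± 0.43 in small-subunit knockdowns. For both phosphatases 0 of 31 small-subunit targets reached the median of the large-subunit targets. The fitted differences were 0.40 ± 0.05 for DUSP1 (adjusted p = 1.08e-09) and 0.51 ± 0.08 for DUSP5 (adjusted p = 2.71e-07; edgeR quasi-likelihood test, large minus small).

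FOSL1 mRNA averaged -0.17 ± 0.42 in large- and -0.82 ± 0.79 in small-subunit knockdowns, a difference of 0.63 ± 0.14 (adjusted p = 0.000149, edgeR). IER3 averaged 0.00 ± 0.25 in large- and -0.38 ± 0.30 in small-subunit knockdowns (0.38 ± 0.06, adjusted p = 1.00e-06). The difference was 0.25 ± 0.07 for IER2 (adjusted p = 0.00330) and -0.25 ± 0.09 for JUND (adjusted p = 0.0281, edgeR). JUN, at 0.24, missed the threshold (adjusted p = 0.0570). It passed with a term for the run (0.28) and without control 20_2 (0.25). FOS (0.16), EGR1 (0.18) and JUNB (-0.06) were not called. In footprints 5 of 10 were called (22.1% of genes, 10.9% higher and 11.2% lower). FOSL1 was at 0.85 ± 0.15, DUSP5 at 0.68 ± 0.09, IER3 at 0.62 ± 0.10, DUSP1 at 0.47 ± 0.08 and JUND at -0.32 ± 0.12 (adjusted p = 8.06e-06, 1.17e-08, 1.43e-06, 1.27e-05 and 0.0472, edgeR). In footprints per mRNA (limma, 16.0% of genes) JUNB (0.26 ± 0.08, adjusted p = 0.0144) and DUSP5 (0.19 ± 0.05, adjusted p = 0.00321) were called. That contrast was fitted with the title set as a term only, and not within the sets or with a term for the run. Single controls had log2 ratios of -0.55 to 0.56 for JUNB and -0.39 to 0.17 for DUSP5 in footprints per mRNA.

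Of the large-subunit targets 40 of 44 are in the unnumbered titles, against 19 of 31 small-subunit targets, so the difference was also taken within each set. In mRNA, numbered and then unnumbered, it was 0.56 and 0.31 for DUSP1, 0.54 and 0.50 for DUSP5, 0.46 and 0.34 for IER3 and 0.71 and 0.62 for FOSL1, all called but FOSL1 in the numbered set. IER2 was called in the numbered set (0.46) and not in the other (0.14), and JUND in neither (-0.33 and -0.25). JUN was called in the numbered set (0.60, adjusted p = 0.00745, edgeR) and not in the other (0.08). In footprints, in the same order, the difference was 1.15 and 0.72 for FOSL1, 0.78 and 0.62 for DUSP5, 1.01 and 0.43 for IER3 and 0.67 and 0.36 for DUSP1, all called. JUND footprints were called in neither set (-0.55 and -0.28), and JUNB footprints in the numbered set (0.52) and not in the other (0.07). With a term for the run the JUND difference was -0.17 in mRNA and -0.28 in footprints, neither called. COL1A1, 1 of 2 measured fibroblast markers, was at -0.67 and CD68, 1 of 2 measured blood cell markers, at 0.64 in the same mRNA comparison. The other marker of each pair was not called, and the medians of the pairs were -0.48 (fibroblast) and 0.21 (blood cell). The part of these markers in the result was not tested.

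**Figure D4:**
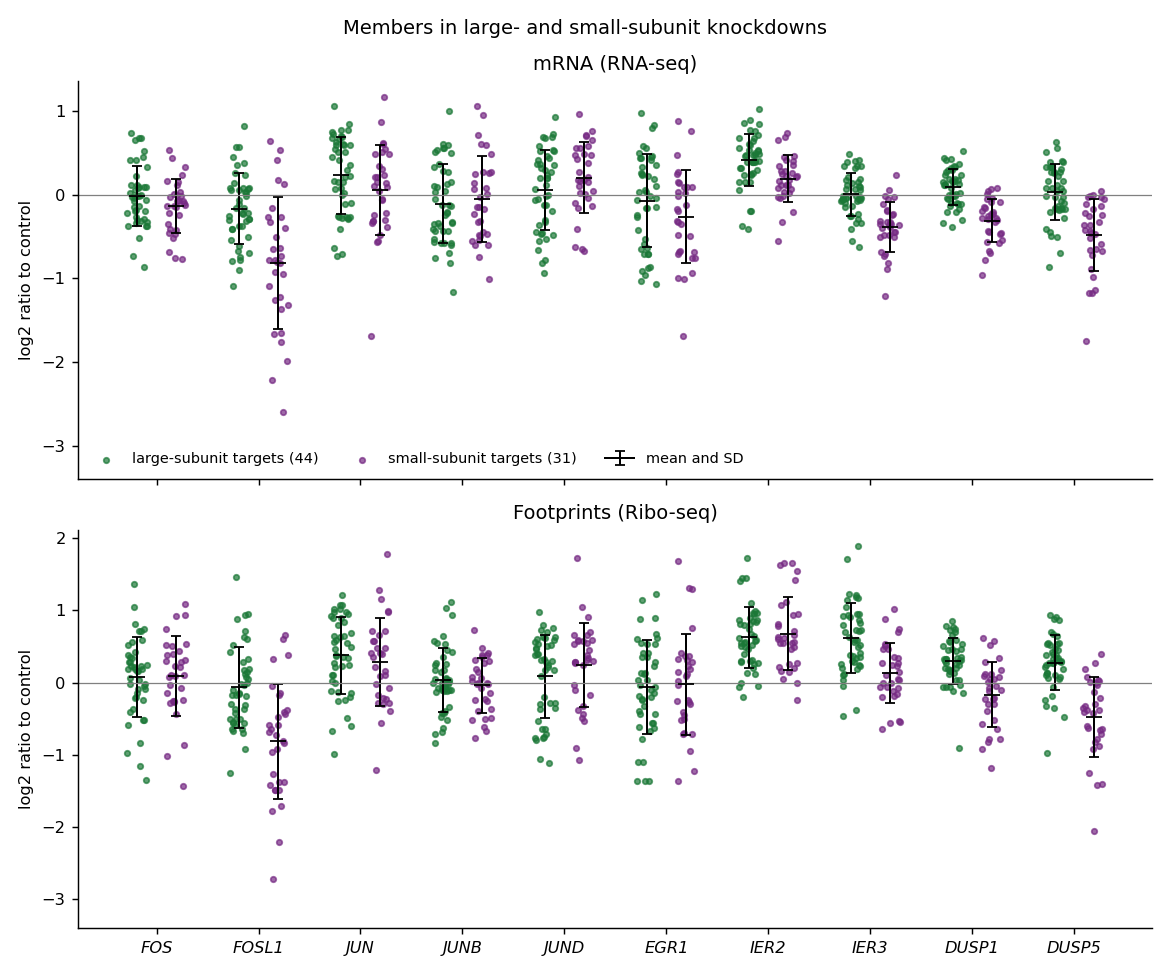
Log2 ratio to control (y axis) of each gene (x axis) in mRNA (top) and footprints (bottom); green points are the 44 large-subunit and purple points the 31 small-subunit targets, with mean and SD in black. DUSP1, DUSP5, IER3 and FOSL1 lie higher in the large-subunit targets, and JUND has its means in the other order (0.05 in large- and 0.20 in small-subunit targets in mRNA).

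JUND was set against the other 9 members over the 75 targets. This contrast was in view when the members were chosen, with earlier results of these data known, so the values describe it and do not test it. The 9 correlations of JUND mRNA with another member had a median Pearson r of -0.01 (-0.39 to 0.30) and 5 were below 0, while the other 36 pairs had a median of 0.37 (-0.15 to 0.63) and 2 below 0. In footprints all 9 correlations with JUND were below 0 (median -0.23, -0.44 to -0.07), against 1 of the other 36 (median 0.31). In footprints per mRNA the medians were 0.12 and 0.20. These r are descriptions over 75 targets that share controls and runs. Within the title sets the JUND medians were -0.22 (16 numbered targets) and -0.10 (59 unnumbered) in mRNA and -0.45 and -0.19 in footprints. In footprints per mRNA the sign turned between the sets, with -0.32 over the numbered (6 of 9 pairs below 0) and 0.22 over the unnumbered targets (1 of 9).

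In mRNA the lowest r of JUND were with FOSL1 and DUSP5; in footprints they were with FOSL1 (-0.44) and IER3 (-0.30), and DUSP5 had -0.23. JUND and FOSL1 mRNA had opposite signs for 57 of 75 targets (r = -0.39, Spearman rho = -0.40; -0.70 within the numbered and -0.32 within the unnumbered titles), 41 with JUND higher and FOSL1 lower than control. Over single libraries the signs were opposite in 67 of 91, 45 of them with JUND higher. JUND and DUSP5 mRNA had opposite signs for 56 targets (r = -0.33). JUND mRNA did not run against JUNB (r = 0.30). JUND and IER2 mRNA had an r of 0.03 and opposite signs in 38 of 91 libraries. Sign counts also depend on where each gene lies against the controls. IER2 and IER3 mRNA, with a positive r, still had opposite signs for 46 of 75 targets. Among the other members the closest pairs in mRNA were FOSL1 with JUN (0.63), IER2 with IER3 (0.61) and IER3 with DUSP1 (0.56), and the phosphatases DUSP1 and DUSP5 had 0.54.

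**Figure D5:**
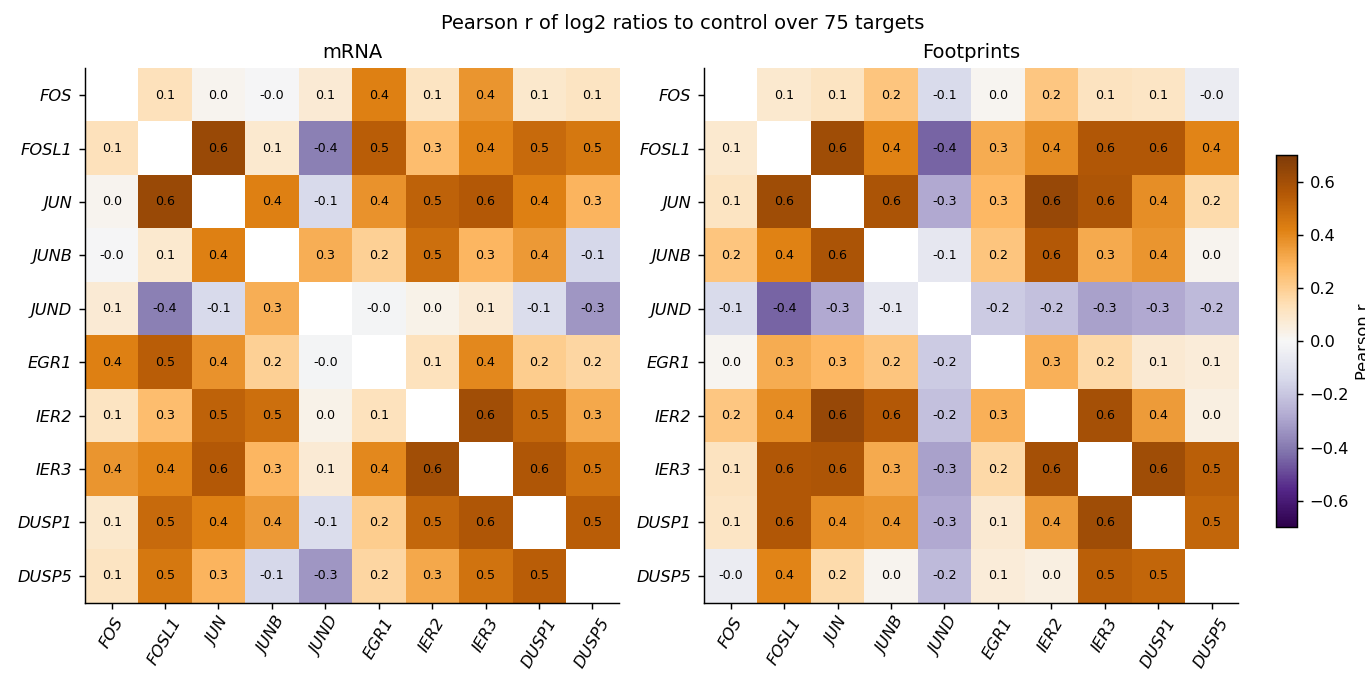
Pearson r over 75 targets between the log2 ratios of each pair of genes, in mRNA (left) and footprints (right); orange is positive and purple negative. The JUND row is negative throughout in footprints (-0.44 to -0.07) and mixed in mRNA (-0.39 to 0.30).

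Outside the members, 11586 genes with a mean of at least 5 CPM were ranked by how closely their mRNA ratios followed each member's over the 75 targets. FOSL1 had the closest match of any member, the RNA helicase gene DDX10 (r = 0.82), then NAV3 (0.77) and TNFAIP3 (0.76). JUN was followed by BCAR3 (0.72), PALM2AKAP2 (0.72) and SHB (0.67), and JUNB by RFX1 (0.68), ZYX (0.68) and PPP1R13L (0.67). For JUND these were RNF5 (0.64), PTMS (0.64) and the small heat shock gene HSPB1 (0.61). DUSP1 was followed by MED16 (0.71), RBM10 (0.70) and CAVIN1 (0.70), IER3 by MAFF (0.67), SMOX (0.66) and ATF4 (0.65), and IER2 by ZNF335 (0.63), BCAN-AS2 (0.61) and ANGPTL4 (0.61). DUSP5 had LURAP1L (0.62) after 2 genes without a symbol, and EGR1 had MT-TH (0.57) and the chemokine gene CXCL8 (0.57) after 1 without. The matches of FOS were weakest, UXT (0.46), DBNDD2 (0.44) and THUMPD3-AS1 (0.44).

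Other genes of the pathway were counted in the same fits, beside the shares over all genes given above. Of 25 other immediate early transcription factors measured, 2 mRNAs rose over all knockdowns, the nuclear receptor NR4A3 (0.56 ± 0.17) and the FOS relative FOSL2 (0.24 ± 0.08), and IRF1 (-0.35 ± 0.08) fell (list median -0.02). In footprints 5 of 24 rose, among them BHLHE40 (0.57 ± 0.10), FOSL2 (0.43 ± 0.11) and CEBPD (0.51 ± 0.17), and ID2 (-0.43 ± 0.13) fell (median 0.21). Between subunits 12 of 25 mRNAs were higher in large-subunit knockdowns, including CEBPB (0.39 ± 0.07), ATF3 (0.38 ± 0.07) and KLF4 (0.43 ± 0.08), and 2 lower, HES1 (-0.38 ± 0.08) and CSRNP1 (-0.16 ± 0.06).

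Of 30 other immediate early effectors, 9 mRNAs rose and 4 fell over all knockdowns (median 0.11). Those that rose include the antiproliferative gene BTG2 (2.47 ± 0.41), the kinase PLK3 (0.62 ± 0.15) and the matrix protein gene CCN2 (0.67 ± 0.17). BTG2 and PLK3 are also among the p53 target genes counted below. Those that fell include GADD45B (-0.71 ± 0.11), the cytokine LIF (-0.39 ± 0.07) and PHLDA2 (-0.50 ± 0.12). Between subunits 26 of 30 effector mRNAs and 23 of 30 footprints were higher in large-subunit knockdowns and the others not called (medians 0.44 and 0.46, against -0.01 over all genes). Examples in mRNA are PPP1R15A (0.64 ± 0.07), which directs a phosphatase to eIF2, BTG1 (0.38 ± 0.05) and the chemokine CXCL1 (0.66 ± 0.09). In footprints they are PLK2 (0.66 ± 0.09), CXCL2 (0.96 ± 0.17) and CXCL1 (0.72 ± 0.13).

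Of 24 ERK feedback and other DUSP genes, 3 mRNAs rose over all knockdowns, DUSP3 (0.38 ± 0.11), DUSP10 (0.40 ± 0.13) and DUSP14 (0.28 ± 0.10), and 7 fell, including the ERK phosphatases DUSP9 (-0.98 ± 0.17) and DUSP7 (-0.61 ± 0.15) and the inhibitor SPRY4 (-0.44 ± 0.11). Between subunits 10 were higher in large-subunit knockdowns, including ERRFI1 (0.50 ± 0.08), a feedback inhibitor of EGFR, CCND1 (0.64 ± 0.11) and the ERK phosphatase DUSP6 (0.45 ± 0.08), and 2 lower, DUSP9 (-0.37 ± 0.13) and SPRED3 (-0.25 ± 0.09). Of 37 components of the MAP kinase cascade and its transcription factors, 4 mRNAs rose and 7 fell over all knockdowns (median -0.05). The transcription factor gene ATF1 rose (0.85 ± 0.10), as did MRTFA (0.35 ± 0.09) and BRAF (0.28 ± 0.10), and the kinase gene RPS6KA5 fell (-0.66 ± 0.14), as did ELK1 (-0.31 ± 0.08) and MAP2K1 (-0.26 ± 0.09). Between subunits 3 were higher in large-subunit knockdowns, including MAP2K3 (0.47 ± 0.07) and ARAF (0.17 ± 0.05), and 5 lower, including MAP2K6 (-0.42 ± 0.10), MRTFA (-0.18 ± 0.06) and RPS6KA3 (-0.25 ± 0.09). In the same mRNA fit over all knockdowns 22 of 25 p53 target genes rose (median 0.94), 8 of 16 heat shock genes fell and 1 rose, and 1 of 15 interferon response genes rose and 2 fell.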

How the data were processed

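The authors deposited whole-number counts per Ensembl gene and library, exon reads in RNA-seq and coding-sequence reads in Ribo-seq per the file headers, not normalized and not pooled. Per the submitters' processing notes, STAR 2.6.1, cutadapt 1.8.1, bcl2fastq 2.20.0.422 and GRCh38 were used; the counting program is not given in the sources used here, nor its strand setting. Members were matched by Ensembl identifier. For controls 21_1 and 21_2 the column name gives the group but no title.

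A gene was tested where at least 11 libraries had 1 CPM or more, 15526 genes in RNA-seq, 12793 in Ribo-seq and 12480 in both, with all 10 members in each. Tests used R 4.3.3, edgeR 4.0.16 (TMM, quasi-likelihood), limma 3.58.1 (log2 CPM ratio per lysate, prior count 2) and, as an alternative, DESeq2 1.42.0, adjusted by Benjamini-Hochberg over all genes tested. The edgeR fits over all knockdowns and of 1 single target were tested on simulated data in both assays. The subunit contrast, the fits of footprints per mRNA and the F test among targets were not. The 2 assays are paired by protocol, since each lysate was divided; their deviations correlated with a median r of 0.0899 over 43 lysates, and 48.8% of these were over 0.1. Libraries of 1 group differed by more than sampling noise (chi-square per degree of freedom at least 3.26 in RNA-seq and 3.64 in Ribo-seq over 41 pairs). Some knockdown targets, counted in every total, and 1 listed gene are not reported here by name. The genes named are otherwise all 10 members, their 3 highest and 3 lowest targets in mRNA, the 3 genes of each list with the smallest p in each direction, and the 3 genes closest to each member; in the tests of single targets, the targets named were chosen after their values were seen. The members, lists and tests were chosen with earlier results of these data known. Alternatives were another scaling (DESeq2's size factors), no filter, no set term, a run term, single sets and runs, control 20_2 left out, a replicate block, and each control or replicate left out; the fits of single runs, of the subunits in the numbered titles or without control 20_2, of footprints per mRNA with a run term, per target or between subunits, and of differences among the 16 targets were added after seeing the data, as was the block with each control left out.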

Additional observations from a re-analysis of the deposited data

Results flagged for a closer look

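Effects that differ between large- and small-subunit knockdowns by a test of the difference itself were found for 7 members (log2, large minus small). In mRNA these were FOSL1 (0.63), DUSP5 (0.51), DUSP1 (0.40), IER3 (0.38), IER2 (0.25) and JUND (-0.25). In footprints they were FOSL1 (0.85), DUSP5 (0.68), IER3 (0.62), DUSP1 (0.47) and JUND (-0.32), and in footprints per mRNA JUNB (0.26) and DUSP5 (0.19). JUND was not called within either title set or with a term for the run, in mRNA or in footprints. IER2 mRNA was not called in the unnumbered titles, nor FOSL1 mRNA in the numbered titles. The contrast in footprints per mRNA was not taken within the title sets or with a term for the run. The number of large-subunit targets in the numbered titles is 4, against 40 in the unnumbered titles, so the numbered values rest on few targets. Libraries of the same target were counted separately in these tests. No control library stood out within a group by Dixon's criterion in any of the 40 groups of controls tested, where chance flags about 1 in 20.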

How the results depend on the processing

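Of the comparisons of all knockdowns with control, the number of members called was 1 in mRNA, and 0 by edgeR without the set term, in the numbered titles alone, in run 1 alone and in run 3 alone (1 member at an unadjusted p under 0.05 in each), and 0 to 1 with each control left out. In footprints it was 2, and 1 in the numbered titles, in the unnumbered titles, in run 1, in run 2 and without control 20_2, 0 in run 3 (3 at an unadjusted p under 0.05), and 1 to 3 with each control left out (3 without control 11_2 or 7, where JUN was added), and 3 by DESeq2. In footprints per mRNA it was 0, and 2 with the replicate block (each lysate paired), with the replicate block and run term, with the replicate block without control 20_2, and in all 11 such fits with 1 control left out. For the 16 targets, 70 mRNA and 75 footprint pairs were called; without replicate 1 or 2 there were 0 and 0 in mRNA and 7 and 9 in footprints, a lone library being assumed to vary like the controls. A replicate block over the 16 targets gave 80 called pairs in mRNA and 88 in footprints. That fit also left out controls 21_1 and 21_2, both in run 3, so its counts do not show the block alone. Between targets, libraries numbered 1 had a median correlation of -0.0215 in RNA-seq (lowest -0.673, 31.7% over 0.1). In Ribo-seq the median was 0.0261 (lowest -0.265, 18.3% over 0.1). These medians cannot decide whether libraries with the same number share more than the number. Signs turned only for members that were called in neither fit. In mRNA these were JUND (-0.16 numbered, -0.16 run 1, -0.021 to 0.14 with 1 control left out), JUNB (0.013 unnumbered) and FOS (0.25 run 3). In footprints they were DUSP1 (-0.0046 numbered, -0.022 run 3), DUSP5 (0.032 no set term, 0.13 unnumbered, 0.22 run 2), EGR1 (0.24 numbered, 0.21 run 1, -0.22 to 0.26 with 1 control left out), JUNB (-0.023 no set term, -0.023 unnumbered, -0.0048 run term, -0.028 run 2, -0.036 run 3) and JUND (-0.083 no set term, -0.12 numbered, -0.35 run 1). In footprints per mRNA they were DUSP5 (-0.054 numbered, -0.0012 run 1, -0.19 run 3; with the block -0.0070 without control 20_2 and -0.015 to 0.062 with 1 control left out), EGR1 (-0.081 run term, -0.27 run 2, -0.28 unnumbered; with the block -0.11 to 0.46 with 1 control left out), FOS (-0.36 run 3), FOSL1 (-0.12 run 1), JUNB (-0.041 unnumbered) and JUND (-0.030 without control 20_2, -0.12 no set term, -0.18 run 1, -0.045 run term; with the block -0.074 with the run term, -0.018 without control 20_2 and -0.063 to 0.12 with 1 control left out). Between subunits they were JUNB mRNA (0.35 numbered, 0.079 run term) and, in footprints, EGR1 (0.061 unnumbered), FOS (-0.032 unnumbered) and IER2 (-0.0084 run term, -0.051 unnumbered). EGR1 did not pass the filter in run 3 alone in Ribo-seq. The cause of these changes was not tested. The median ratios per target and the JUND medians moved by less than the spread with another pseudocount, with all 11 controls as the base and with CPM on library totals; the r of JUND differed between the title sets, as given with them. EGR1 and FOS have few footprints, which limits their footprint values.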
